A study of Mus musculus with 6 samples.

Results

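A set of shallow barcodes from ileal crypt epithelium in which 1 gene, Peak1, took a very large share of the transcripts was described by single-cell RNA sequencing. A barcode belonged to the set when it held at least 1000 and under 10000 UMIs (unique molecular identifiers, each marking 1 captured transcript molecule), at least 500 genes and at most 20% of UMIs from the mitochondrial genome, with Peak1 at 5% or more of its UMIs, all Hist1h histone genes together below 0.5%, and fewer than 3 of the 6 genes Areg, Pfkfb3, Edn1, Creb3l3, Apob and Myo15b detected. These limits gave 2747 members, which were 16.1% of the 17104 barcodes kept at 1000 or more UMIs under the same gene and mitochondrial limits, 23.4% of the 11721 shallow ones among them, and 60.5% of the 4539 shallow barcodes with Peak1 at 5% or more. Peak1, the histone genes, the 6 genes, the UMI and gene totals and the mitochondrial share chose the members, so their values are given only as a description. Comparisons of members with other barcodes of the same libraries are likewise descriptive and carry no test. Genotype did not enter the rule, and comparisons between genotypes were tested.

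The study asked what loss of the formyl peptide receptor FPR2 in intestinal epithelium does to crypt cells. Crypt cells of mouse ileum were sorted for the epithelial surface protein EpCAM and run on the MobiNova-100 droplet platform, giving 3 libraries per genotype. Fpr2f/f mice (labelled WT) carried Fpr2 flanked by recombination sites on the C57BL/6J background, with the gene left in place. Fpr2VKO mice (labelled as a knockout in intestinal epithelium) carried the same allele together with Cre recombinase under the Villin promoter, which is active in intestinal epithelial cells, so deletion was not aimed at the few immune cells that remain after sorting. Mice were matched for sex and age (8 to 12 weeks), and the labels name no treatment. Each genotype was represented by 3 mice, and the labels do not say which mouse gave which library. P-values measure the spread between these libraries.

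Ileal crypts hold Lgr5-expressing stem cells and Paneth cells at their base and dividing transit-amplifying cells above them, from which enterocytes, goblet, enteroendocrine and tuft cells arise. PEAK1 is a pseudokinase that serves as a scaffold in growth factor and integrin signalling. Gephyrin, encoded by Gphn, anchors inhibitory neurotransmitter receptors at synapses and makes the molybdenum cofactor, CDK8 is the kinase of the Mediator complex, and IL31RA is the ligand-binding receptor chain for the cytokine interleukin-31. Barcodes with few UMIs can be intact small cells, damaged cells that have lost cytoplasmic RNA, or droplets that hold free RNA, and transcript data alone do not separate these.

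Members were spread over all libraries, with 562, 906 and 474 members in the Fpr2f/f libraries (replicates 1 to 3) and 332, 307 and 166 in the Fpr2VKO libraries. The median member held 2068, 3562 and 3098 UMIs in the Fpr2f/f libraries (replicates 1 to 3) and 3993, 2626 and 3138 in the Fpr2VKO libraries, and the median number of genes ranged from 860.0 to 1400. Fpr2f/f replicate 1 was the shallowest library and Fpr2VKO replicate 1 the deepest, and the genotypes overlapped. Summed over members, a library gave 564131 to 3475603 UMIs, and barcodes with 10000 or more UMIs had medians of 25715 to 36266. The median mitochondrial share was 13.9 to 16.4%, close under the 20% limit, beside 13.5 to 15.9% in the shallow barcodes with Peak1 below 5% (called other shallow barcodes from here on). Of the member barcodes, 1 sequence occurred in more than 1 library as a member, and 40 members had a barcode that was kept in another library. No doublet caller was run.

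Peak1 made up 8.47, 8.72 and 8.36% of UMIs in the Fpr2f/f libraries (replicates 1 to 3) and 8.60, 7.92 and 7.27 in the Fpr2VKO libraries in the median member and up to 29.3% in a single one. Medians were 0.931 to 2.44% in the other shallow barcodes and 0.224 to 0.406% in barcodes of 10000 or more UMIs. Summed over all barcodes of a depth class, with no limit on mitochondrial share or genes, Peak1 was 0.728 to 1.99% of UMIs in barcodes under 100 UMIs, taken here as free RNA, 2.06 to 4.41% in barcodes of 2000 to 5000 UMIs and 0.508 to 1.11% at 10000 or more. Among kept barcodes the latter 2 ranges were 3.13 to 6.12% and 0.309 to 0.687%. The members came from the depth range in which Peak1 was highest. Members just inside the limit, with Peak1 at 5% to 5.5%, had 1179 to 2676 CPM of Gphn by library, and shallow barcodes just outside it, at 4.5% to 5%, had 1312 to 3196 CPM, where CPM is UMIs per 1000000 UMIs summed over the barcodes of a library. These ranges overlapped.

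Whether members were more or less frequent with Fpr2 deleted was asked with the library as the replicate. Peak1, which the rule counts by, was named by the study on these libraries among genes lower in immature cells of Fpr2VKO mice. A lower frequency of members is therefore not independent of that report. Members were 21.3, 19.2 and 16.7% of kept barcodes in the Fpr2f/f libraries (replicates 1 to 3) and 14.6, 11.1 and 8.89 in the Fpr2VKO libraries. Every Fpr2VKO library lay below every Fpr2f/f library, with means of 19.1% ± 2.28 against 11.5% ± 2.91 (SD, n = 3 each, exact permutation p = 0.1, two-sided, which is the smallest p that 3 against 3 libraries allow, and 0.2 after adjustment over 2 tests). Kept barcodes include those of 10000 or more UMIs, which the rule bars from the members. These were 764 of 2643, 996 of 4722 and 769 of 2836 in Fpr2f/f. In Fpr2VKO they were 826 of 2267, 1227 of 2768 and 801 of 1868, a larger part than in any Fpr2f/f library. The part of this in the percent of kept barcodes was not tested. Of the shallow barcodes alone, members were 29.9, 24.3 and 22.9% in Fpr2f/f and 23.0, 19.9 and 15.6 in Fpr2VKO. Here the groups overlapped, and the means of 25.7% ± 3.69 and 19.5% ± 3.76 (SD, n = 3 each) gave an exact permutation p = 0.2 (two-sided, 0.2 after adjustment), where the smallest possible is 0.1. The overlap was narrow, at 22.9% in Fpr2f/f replicate 3 and 23.0% in Fpr2VKO replicate 1, and was absent when either of these libraries was left out.

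The Peak1 share of free RNA moved with the same groups: in barcodes under 100 UMIs it was 1.66, 1.99 and 1.31% in Fpr2f/f and 1.14, 1.01 and 0.728 in Fpr2VKO, with no overlap. Its part in the lower frequency of members was not tested. The frequency of members also changed with depth, from 20.9 to 35.3% of kept barcodes with 1000 to 2000 UMIs to 6.71 to 18.6% of those with 5000 to 10000. Beyond the mitochondrial limit, barcodes with 20% to 30% mitochondrial UMIs met all other limits in 7.5 to 22.3% of cases and those with 30% to 40% in 1.29 to 11.3%, so the mitochondrial limit cut through the Peak1-rich barcodes.

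**Figure D1:**
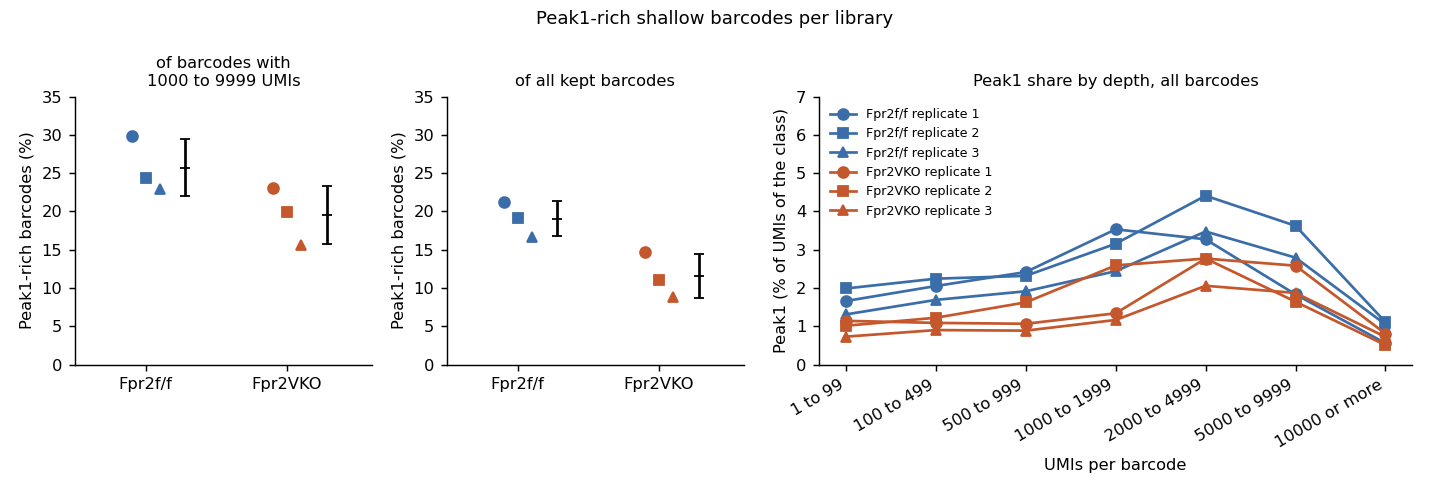
Left and middle, members as a percent of shallow and of all kept barcodes in each library (points, with the mean and SD of 3 libraries beside them); right, Peak1 as a percent of all UMIs in barcodes of each depth class, with no limit on mitochondrial share or genes, 1 line per library. The middle panel separates the genotypes without overlap, the left panel does not, and Peak1 peaks in all 6 libraries between 1000 and 10000 UMIs.

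The leading genes of members were ranked by the lowest of 6 within-library log2 ratios of CPM against the other shallow barcodes (1 CPM added to both), among genes with a mean of at least 100 CPM in members. Il31ra, Gphn, Peak1 and Cdk8 held the first 4 places. Il31ra was present at 658, 1292 and 1240 CPM in Fpr2f/f and 737, 793 and 870.4 CPM in Fpr2VKO, against a mean of 176 CPM in the other shallow barcodes and 78.9 CPM in barcodes of 10000 or more UMIs. Gphn was present at 3266, 5167 and 5712 CPM in Fpr2f/f and 4087, 4126 and 4593 CPM in Fpr2VKO, against means of 873 and 428 CPM in those barcodes. Cdk8 stood at 2853, 4184 and 4280 CPM in Fpr2f/f and 2927, 3218 and 2852 CPM in Fpr2VKO, against 801 and 302 CPM. The log2 ratio over the other shallow barcodes was 2.21 to 2.76 for Il31ra, 2.16 to 2.55 for Gphn and 1.91 to 2.39 for Cdk8 over the 6 libraries. In free RNA these genes had means of 225, 872 and 708 CPM, close to their levels in the other shallow barcodes and above those in the deepest barcodes. Mitochondrial UMIs count in these totals. They were 42.4 to 52.2% of free RNA by library, beside medians of 13.5 to 15.9% in the other shallow barcodes. The CPM of all other genes in free RNA is lowered by this.

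After each barcode was thinned to 1000 UMIs, Gphn was detected in 87.1% (81.3% to 89.7% by library), Cdk8 in 86.5% and Il31ra in 51.2% of members. The shares were 55.4%, 52.3% and 18.1% in the other shallow barcodes and 33.2%, 25.8% and 7.88% in barcodes of 10000 or more UMIs. These 3 genes marked the members by level, while none of them was limited to the members.

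The genes that followed were of several kinds. Cmss1 reached 7097 to 10652 CPM in members (mean 2341 CPM in the other shallow barcodes), Lars2, the mitochondrial leucyl-tRNA synthetase, 2107 to 3325 CPM (mean 856), and Zfp791, a zinc finger gene, 3989 to 6236 CPM (mean 1340). The kinase gene Camk1d reached 2973 to 5524 CPM, and the non-coding gene Gm48099 49.5 to 183 CPM. Hells, a chromatin remodelling helicase of dividing cells, and Cbx3, a heterochromatin protein, were lower in level, at 137 to 191 and 192 to 232 CPM against means of 57.6 and 79.5 CPM. The other leading genes were Dclk1, Gm26917, Zfp949, Rpl35, Hist1h4d, Gm19951, Zfp36l2, Fyb and Pdap1. Of the 9163 genes with a mean of at least 10 CPM in either population, 734 (8.01%) were higher and 4581 (50%) lower in members in 6 of 6 libraries. A lower level was the common case. Through the rule, Peak1 took means of 89393 CPM in members and 16912 CPM in the other shallow barcodes. With a fixed total this lowers the CPM of other genes in members, and its part in these counts was not tested. Against barcodes of 10000 or more UMIs, 1829 of 8799 genes (20.8%) were higher and 3735 (42.4%) lower in every library.

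**Figure D2:**
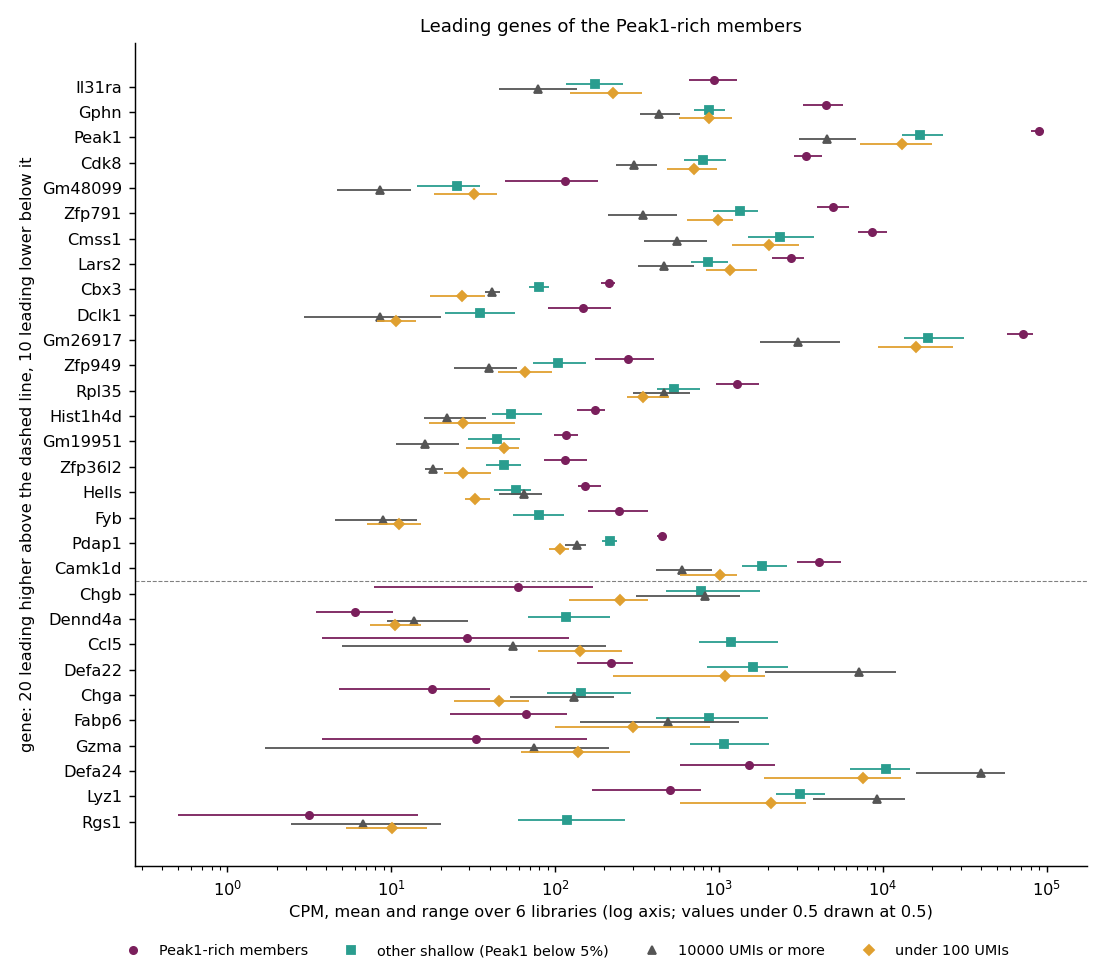
CPM (log axis) of the 20 leading higher and 10 leading lower genes in members, other shallow barcodes, barcodes of 10000 or more UMIs and barcodes under 100 UMIs, with points for the mean and lines for the range over 6 libraries. For the upper genes the members lie to the right of all other populations, with Dclk1 and Fyb near 10 CPM outside shallow barcodes.

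By level, a few genes filled much of the transcript count of a member. Gm26917 was the next most abundant nuclear gene after Peak1, at 72549, 73647 and 74936 CPM in Fpr2f/f and 82954, 67617 and 56946 CPM in Fpr2VKO, and Gm42418 followed with 21905 to 32062 CPM (UMIs count molecules, so levels were not divided by transcript length). In barcodes of 10000 or more UMIs their means were 3044 and 3858 CPM. Gm26917 (chr17:39843013-39846341, GRCm38, plus strand) and Gm42418 (chr17:39846958-39848788, plus strand) are neighbouring non-coding genes. Gm42418 overlaps an annotated ribosomal RNA gene, so that reads of ribosomal RNA and of Gm42418 cannot be told apart in gene counts. Gm26917 overlaps no annotated gene, but it lies beside Gm42418 on the same strand. Whether reads of ribosomal RNA were counted as Gm26917 was not tested. Peak1 (chr9:56201126-56418067, minus strand), Gphn (chr12:78226379-78684772, plus strand), Cdk8 (chr5:146231230-146302874, plus strand) and Il31ra (chr13:112519898-112594360, minus strand) lie on other chromosomes.

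The remaining genes of highest level were Malat1, a nuclear long non-coding RNA (7510 to 9922 CPM), Celf2, an RNA-binding splicing regulator (4748 to 9184 CPM), the translation factor gene Eef1a1, and ribosomal protein genes. Malat1 did not set members apart: its log2 ratio over the other shallow barcodes ran from -0.59 to 0.11. Members exceeded barcodes of 10000 or more UMIs in Malat1, with means of 8316 and 2890 CPM. Several leading genes are long. Of the 20 leading genes, 9 (45%) span at least 50 kb of the genome, among them Gphn with 458 kb, Camk1d with 421 kb and Cmss1 with 305 kb, against 26.8% of the 1058 genes with at least 100 CPM in members. The median span was 31.6 kb against 17.6 kb. Exon and intron reads were not separated in the gene counts used here.

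The counts for known partners of the 4 leading genes stand against a background in which 50% of all genes were lower and 8.01% higher in members in 6 of 6 libraries. Of 12 genes for partners of PEAK1 (among them the related pseudokinase Prag1 and the adaptors Grb2, Shc1, Crk and Bcar1), 0 were higher and 7 lower in 6 of 6 libraries than in the other shallow barcodes, with a median log2 ratio of -0.57 beside -0.40 over all genes. Prag1 had a mean of 27.0 CPM in members and 40.6 CPM in the other shallow barcodes, and Grb2 33.3 and 66.3 CPM. Of the 12 genes of interleukin-31 signalling, 8 were measured (a mean of at least 10 CPM in either population), and of these only Il31ra was higher in 6 of 6 libraries while 5 were lower (median -0.90). The co-receptor gene Osmr, whose product pairs with IL31RA, had a mean of 0.212 CPM in members, and the ligand genes Il31 and Osm had 0.179 and 0 CPM. Stat3, a transcription factor downstream of the receptor, was lower, at a mean of 37.7 against 155 CPM.

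In the kinase module of Mediator, Cdk8 was higher and 4 of 6 genes with at least 10 CPM were lower in every library. Ccnc, the cyclin that CDK8 needs, had a mean of 9.64 CPM in members and 22.9 CPM in the other shallow barcodes, Med13 60.4 and 145 CPM, and the paralogous kinase Cdk19 23.9 and 33.4 CPM. Of 14 genes around gephyrin, 6 were measured: Gphn and Mocs3 were higher in every library and 4 lower (median -0.70). The glycine receptor subunit gene Glra1, a synaptic partner, had a mean of 1.53 CPM. Suox, a molybdenum enzyme, had 4.34 against 17 CPM.

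Among the members themselves, the leading genes rose with Peak1. From members with Peak1 at 5% to 7% of UMIs to those at 10% or more, Gphn went from 1537 to 3002 CPM to 5939 to 9522 CPM by library, Cdk8 from 1524 to 2664 to 4086 to 6319 CPM and Il31ra from 323 to 669 to 1135 to 2156 CPM. For each of the 3 genes the lowest library at 10% or more exceeded the highest at 5% to 7%. Within a library, the correlation over members (Pearson's r on the share of UMIs, 166 to 906 members per library) with Peak1 was 0.45 to 0.62 for Gphn, 0.33 to 0.55 for Cdk8, 0.20 to 0.54 for Il31ra, 0.35 to 0.59 for Cmss1, 0.41 to 0.62 for Lars2 and 0.47 to 0.59 for Zfp791. These genes share the library and the UMI total of each barcode with Peak1, and shares of 1 total are not independent.

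Other abundant transcripts followed Peak1 less closely or not at all. Gm26917 went from 52404 to 66694 CPM at 5% to 7% Peak1 to 56950 to 98252 CPM at 10% or more, rising in 5 of 6 libraries and falling in Fpr2VKO replicate 2, with r of -0.06 to 0.18 over members. For Malat1 r was -0.06 to 0.03 and for Celf2 -0.24 to 0.02, and for the sum of ribosomal protein genes it was -0.38 to -0.11. Gm42418 lay between, at 0.14 to 0.50. The mitochondrial share was slightly lower at higher Peak1 (-0.27 to -0.13), and for log10 of the UMI total r was near 0 (-0.11 to 0.07). Ribosomal protein genes summed to 133453 to 159199 CPM at 5% to 7% Peak1 and 103331 to 129290 CPM at 10% or more. The Peak1 group of transcripts (Gphn, Cdk8, Il31ra, Cmss1, Lars2 and Zfp791) had positive r in all 6 libraries. These genes were leading genes against barcodes with Peak1 below 5%, so that going with Peak1 is a description of how they were picked and no support for a group.

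**Figure D3:**
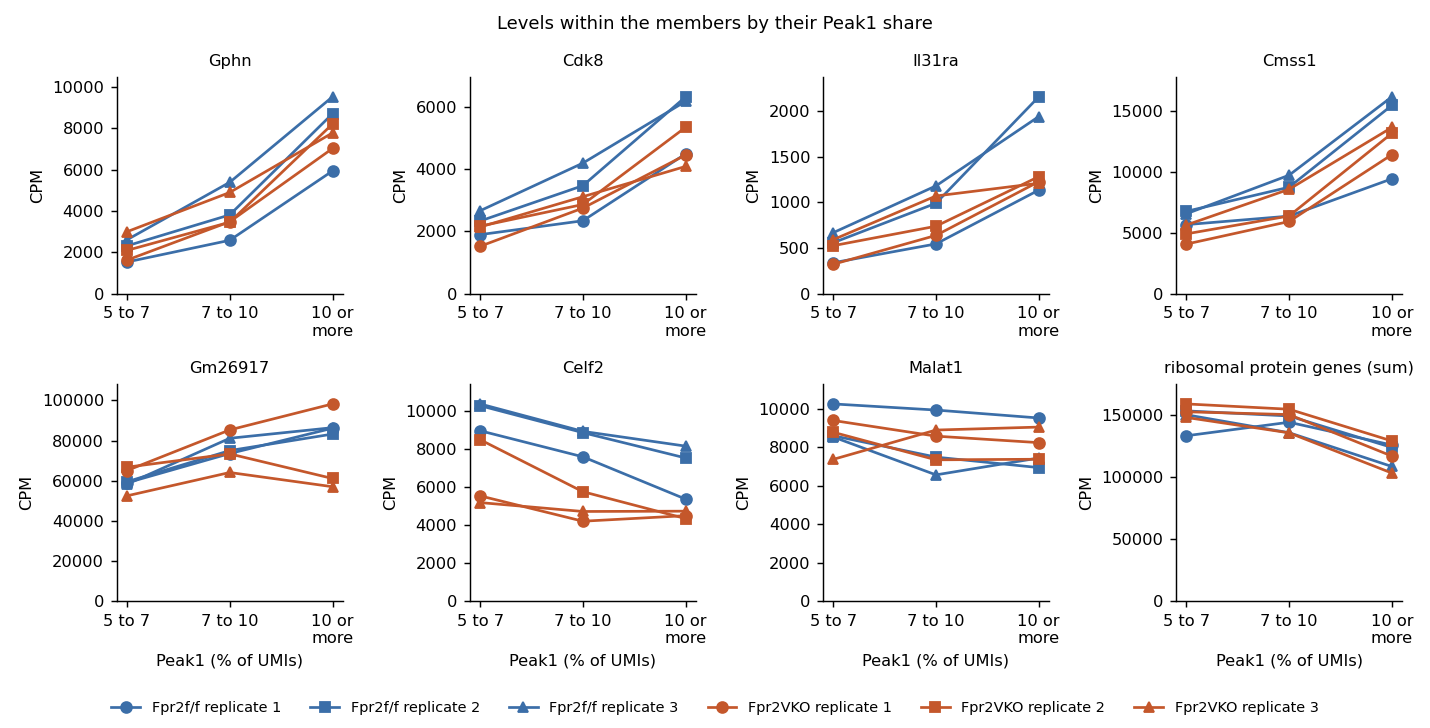
CPM of 8 items in members grouped by their Peak1 share (5% to 7%, 7% to 10%, 10% or more of UMIs), 1 line per library. Gphn, Cdk8, Il31ra and Cmss1 climb in all 6 libraries, ribosomal protein genes end lower than they start in all 6, and Malat1 stays within 6566 to 10263 CPM.

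The Peak1 group was not particular to the members among Peak1-rich barcodes. Of 8413 genes, 9.06% were higher and 4.53% lower in members in 6 of 6 libraries than in the shallow barcodes that failed the histone limit. In those 1007 barcodes, which also had Peak1 at 5% or more, the means were 5329 CPM for Gphn, 3822 CPM for Cdk8 and 1520 CPM for Il31ra. Members had means of 4492, 3386 and 932 CPM. Il31ra was lower in members than in these histone-rich barcodes in 6 of 6 libraries (log2 ratio -0.87 to -0.50). In the 785 Peak1-rich barcodes with 3 or more of the 6 genes Areg, Pfkfb3, Edn1, Creb3l3, Apob and Myo15b, the means were 2794, 2869 and 705 CPM. Against the histone-rich barcodes, dividing-cell genes were less frequent in members after thinning: Top2a was detected in 20.9% against 38.3% and Mki67 in 15% against 26.8%. Against the barcodes with 3 or more of the 6 genes, the enterocyte disaccharidase gene Sis was detected in 9.06% against 34.3%. The rule itself split both sets from the members, by histone genes and by the 6 genes. Differences in genes that go with these limits therefore follow in part from the rule.

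The marker lists gave the members no cell type. Epithelial transcripts were present, although 6 of 10 epithelial genes were lower and 2 higher than in the other shallow barcodes in 6 of 6 libraries (median log2 ratio -0.20). Epcam was detected in 76.6% (69.9% to 79.7% by library) of members after thinning to 1000 UMIs, beside 71.7% of the other shallow barcodes, and the keratin gene Krt8 in 62.7%. Apart from tuft genes, described below, most markers of differentiated cells were lower in members than in the other shallow barcodes in 6 of 6 libraries. These were 11 of 11 enterocyte genes (median log2 ratio -1.90), 9 of 9 Paneth genes (-2.74) and 7 of 7 goblet genes (-2.66). With them went 4 of 7 measured enteroendocrine genes (-2.98) and 8 of 8 immune genes (-4.92). The medians stand beside -0.40 over all genes, and 50% of all genes were lower. The other shallow barcodes were not divided by cell type and hold differentiated and immune cells. The rule also took barcodes with 3 or more of Areg, Pfkfb3, Edn1, Creb3l3, Apob and Myo15b out of the members and not out of the other shallow barcodes, and the barcodes it took out were rich in enterocyte genes (Sis, above), so part of the enterocyte difference follows from the rule. Against barcodes of 10000 or more UMIs, 10 of 11 enterocyte, 9 of 9 Paneth and 7 of 7 goblet genes were lower in every library. Of all genes, 42.4% were lower in that comparison.

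Fabp6, the ileal bile acid binding protein of enterocytes, had a mean of 66.5 CPM in members and 865 CPM in the other shallow barcodes, and Muc2, the main goblet mucin, 153 and 1030 CPM. The hormone granule gene Chgb had 59.1 and 782 CPM, and the lymphocyte protease Gzma 32.8 and 1076 CPM. Blood and stroma genes were at or near 0, with Hbb-bt at 0 UMIs in members of all libraries (0 of 2747 members after thinning, which allows a share of up to 0.109% with a UMI). The remaining leading lower genes were Dennd4a, Ccl5, Defa22, Chga, Defa24, Lyz1 and Rgs1.

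Paneth transcripts were detected often, and at a level below that of free RNA. Defa24, a Paneth defensin, was detected in 58.9% (23.8% to 84.7% by library) of thinned members and in 64.0% (29.7% to 80.9% by library) of the other shallow barcodes. Its mean was 1535 CPM in members and 7597 CPM in free RNA. The low end in both was Fpr2f/f replicate 1, in which free RNA had 1881 CPM of Defa24 against 3192 to 12829 CPM in the other libraries. The part of free RNA in the share of members with Defa24 was not tested. Gzma, which epithelial cells lack, was detected in 0.801% of thinned members.

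Against the other shallow barcodes, stem and transit-amplifying genes were more often higher than lower in members, whereas over all genes 8.01% were higher and 50% lower. Of 9 measured stem genes, 2 were lower and 4 higher in every library (median 0.33). The higher ones were Axin2, a Wnt target, with means of 70.8 and 42.0 CPM, Smoc2 with 96.2 and 56.7 CPM, Sox9 and Slc12a2. Other genes of the list went the other way. Rnf43 was detected in 3.02% of thinned members and 4.16% of the other shallow barcodes, and Znrf3 in 3.17% and 4.15%. Lgr5 itself was detected in 2.33% of thinned members, 2.02% of the other shallow barcodes and 3.16% of barcodes with 10000 or more UMIs, and Olfm4 in 23.9%, 17.3% and 25.1%. Of 12 transit-amplifying genes, 3 were higher and 0 lower in every library (median 0.06). Top2a, the mitotic topoisomerase, was among the 3 and was detected in 20.9%, 14.0% and 10.9%. Against barcodes of 10000 or more UMIs, 2 of the 12 were higher and 6 lower in every library (median -0.34). Over all genes, 20.8% were higher and 42.4% lower in that comparison. Ran, a further gene of the list, was detected in 16.3%, 13.1% and 25.8%. At least 1 stem gene was detected in 49.5%, 38.3% and 43.5% of thinned members, other shallow barcodes and barcodes of 10000 or more UMIs, and at least 1 transit-amplifying gene in 65.6%, 54.8% and 59.1%. With 3 or more genes of the list, the stem shares were 3.82%, 3.77% and 8.32% and the transit-amplifying shares 13%, 13.3% and 19.9%. Members had the highest shares at 1 gene, and barcodes of 10000 or more UMIs had them at 3. Among the 20 leading genes, Dclk1 was the only marker of any list of cell types, so the members stay unnamed.

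A list of low-depth transcripts was for the most part higher in members. It held 14 transcripts known from earlier looks at these data to be high in shallow barcodes. Il31ra, Cdk8, Gphn and other leading genes of the members are among them. The count is therefore a description of how the list was picked and no support for a group. Of the 14, 10 were higher in every library (median log2 ratio 1.39), beside 8.01% of all genes. The exceptions included AY036118, a further gene at the ribosomal RNA locus, with means of 1096 CPM in members and 1140 CPM in the other shallow barcodes. The 6 genes that the study named in its immature cells (Il31ra, Cdk8, Ccnb1ip1, Cd44, Hes1 and Lars2), a list chosen on these same libraries from which Peak1 and the ribosomal protein genes that the study also named are left out, were higher in 5 of 6 cases (median 1.25). Cd44, a hyaluronan receptor and Wnt target, had means of 195 and 115 CPM, and Hes1, a Notch target, 299 and 251 CPM, while Ccnb1ip1 ran from a log2 ratio of -0.44 to 0.75. Of 80 measured cytosolic ribosomal protein genes, 42 were higher and 14 lower in every library (median 0.16), beside 8.01% and 50% of all genes. Rpl35 was highest of them in the ranking (957 to 1757 CPM against a mean of 532 CPM). Of 4 measured nuclear long non-coding RNAs, 3 were lower in every library, beside 50% of all genes. Neat1 was among them with 98.0 against 204 CPM.

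**Figure D4:**
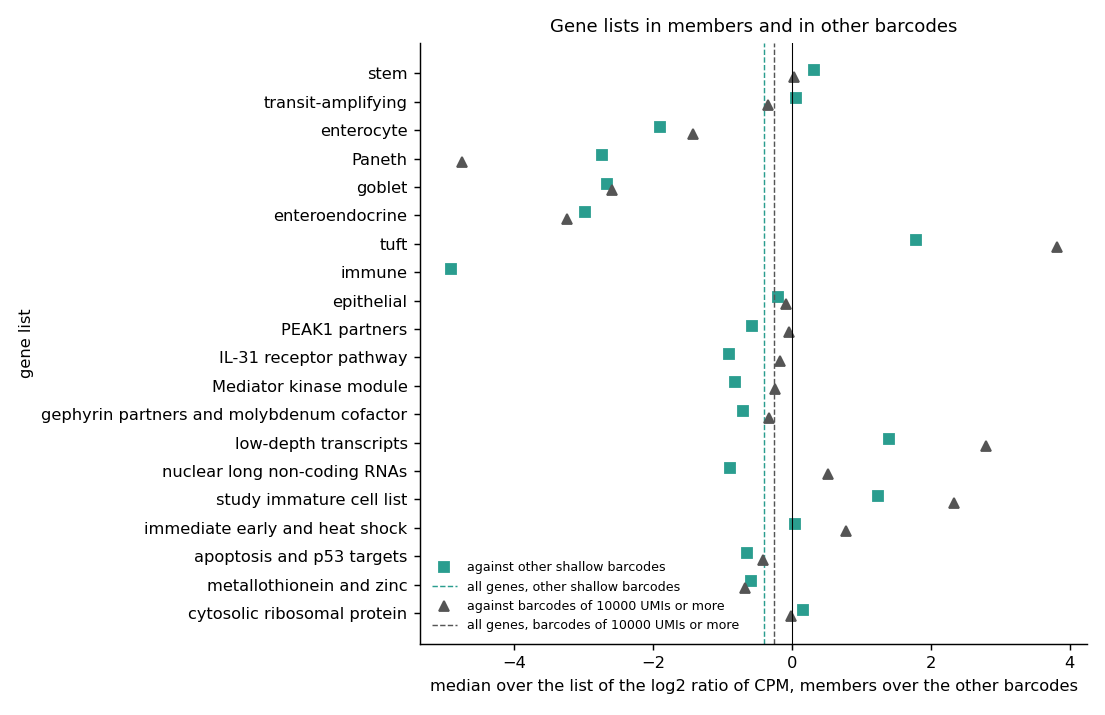
Median log2 ratio of CPM, members over other barcodes, for each gene list with at least 3 measured genes, against the other shallow barcodes (squares) and against barcodes of 10000 or more UMIs (triangles); dashed lines mark the median of all genes. The tuft, low-depth and immature cell lists lie furthest to the right of the dashed lines in both comparisons. The stem, epithelial, ribosomal protein and immediate early lists also lie to the right in both. The enterocyte, Paneth, goblet and enteroendocrine lists are among those to the left.

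Tuft transcripts were concentrated in few members. Tuft cells are rare chemosensory epithelial cells. Of 6 measured tuft genes, 6 were higher in members in every library (median log2 ratio 1.80), beside 8.01% of all genes. With 3 or more of 8 tuft genes detected, 160 members (5.82%) carried a tuft profile, 6.76, 4.64 and 4.22% in Fpr2f/f and 6.33, 7.49 and 9.64 in Fpr2VKO, with overlap of the genotypes. They were 47.8% of the 335 kept barcodes that met the same count, although members made up 16.1% of kept barcodes.

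In these 160 barcodes Dclk1, a microtubule-associated kinase and classical tuft marker, had 2369 to 2989 CPM by library, Trpm5, the cation channel of taste signalling, 327 to 674 CPM, and Avil, an actin-binding protein, 1013 to 1200 CPM. In the other 2587 members the ranges were 3.41 to 15.3, 0 to 3.81 and 3.23 to 9.53 CPM. These genes selected the 160 barcodes and are a description. Fyb, an adaptor gene that was not in the count, followed them, with 3482 to 5377 CPM against 4.54 to 54.3 CPM. Il25, the tuft cytokine, had 0 UMIs in all members (limit of 0.109% of thinned members for barcodes with a UMI, not for cells that express it).

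The Peak1 group was high in both fractions. Between tuft barcodes and the other members of the same library, Cdk8 was higher in the tuft barcodes in 5 of 6 libraries (2768 to 6269 against 2770 to 4212 CPM), Il31ra in 4 of 6 (708 to 1640 against 646 to 1292 CPM) and Gphn in 4 of 6 (3266 to 7509 against 3113 to 5650 CPM). The widest gap was in Fpr2f/f replicate 1, with 5607 CPM of Gphn in the tuft barcodes and 3113 CPM in the other members. The median mitochondrial share of the tuft barcodes was lower than that of the other members in 6 of 6 libraries (9.11 to 12.9% against 14.1 to 16.4%), and their median Peak1 share higher in 6 of 6 (8.29 to 11.8% against 7.04 to 8.61%). Olfm4 and Top2a were lower in them in 6 of 6, at 16.2 to 236 against 368 to 637 CPM and 25.2 to 128 against 263 to 414 CPM. Free RNA held Olfm4 at 251 to 297 CPM in Fpr2f/f and 546 to 647 CPM in Fpr2VKO, so that in Fpr2VKO replicates 1 and 2 the other members lay below free RNA for this gene, and Olfm4 does not tell them from background there. The large mitochondrial part of free RNA, given above, lowers its Olfm4 levels, so the other libraries do not settle this either.

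The deletion itself could not be read in these cells. Fpr2 had 0 UMIs in the members of every library and in all barcodes of 1000 or more UMIs, in both genotypes, and the totals of the members allow at most 0.863 to 5.32 CPM (3 counts of each library's total, counting error only). Libraries are therefore named by their labels.

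Within members, UMIs were summed per library and genes were compared between genotypes with edgeR's quasi-likelihood test, with Benjamini-Hochberg adjustment over all 9025 genes tested. The genes of the rule were left out of the tests. At an adjusted p under 0.05, 5 genes (0.0554%) were called, 2 higher (0.0222%) and 3 lower (0.0332%) in Fpr2VKO, and DESeq2 called 4 of 9024 (0.0443%). At an unadjusted p under 0.05, edgeR gave 663 genes (7.35%). The groups did not overlap in 1080 genes (12%). They did not overlap in any of the 5 called genes.

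Mt1, a metallothionein that binds zinc and copper, was present at 187, 216 and 252 CPM in Fpr2f/f and 744, 787 and 872 in Fpr2VKO. It was higher in Fpr2VKO by the largest margin (log2 fold change 1.88, SE 0.124, adjusted p = 9.75e-14 by edgeR). Vil1, which encodes the microvillus protein villin, was present at 228, 184 and 179 CPM in Fpr2f/f and 310.4, 334 and 310.2 in Fpr2VKO and rose as well (log2 fold change 0.72, SE 0.125, adjusted p = 0.00431 by edgeR). The Cre transgene of Fpr2VKO mice is driven by the Villin promoter, and whether transcripts of the transgene were counted as Vil1 was not tested.

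The 3 lower genes were Gm48099, Celf2 and Plec. Gm48099, a non-coding gene and one of the leading genes of the members, was present at 143, 183 and 137 CPM in Fpr2f/f and 49.5, 97.7 and 76.2 in Fpr2VKO (log2 fold change -1.10, SE 0.179, adjusted p = 0.00431 by edgeR). Celf2 was present at 7361, 8774 and 9184 CPM in Fpr2f/f and 4748, 6472 and 4939 in Fpr2VKO (log2 fold change -0.64, SE 0.119, adjusted p = 0.00993 by edgeR). Plec, which encodes the cytoskeletal linker plectin, was present at 141, 142 and 132 CPM in Fpr2f/f and 91.4, 82.6 and 72.7 in Fpr2VKO (log2 fold change -0.70, SE 0.145, adjusted p = 0.0370 by edgeR). Mt1 was called under all 17 alternatives, Vil1 and Gm48099 under 14 each, Celf2 under 11 and Plec under 8. Without Fpr2VKO replicate 1, Mt1 was the 1 gene called, without Fpr2VKO replicate 3 the count was 2, and without Fpr2f/f replicate 1 it was 13.

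The same genes differed outside the members. In free RNA, Mt1 had 148 to 236 CPM in Fpr2f/f and 865 to 1111 CPM in Fpr2VKO, Vil1 235 to 286 CPM in Fpr2f/f and 334 to 379.9 CPM in Fpr2VKO, Gm48099 37.9 to 44.3 CPM in Fpr2f/f and 18.3 to 27.1 CPM in Fpr2VKO and Celf2 2077 to 5030 CPM in Fpr2f/f and 1653 to 1810 CPM in Fpr2VKO, without overlap in these 4 genes. Of the 9025 genes, 15.3% did not overlap in free RNA. For Plec the free RNA of the groups overlapped. In the other shallow barcodes, Mt1 had 215, 214 and 286 CPM in Fpr2f/f and 1128, 1115 and 1255 in Fpr2VKO, and Vil1, Gm48099 and Celf2 again did not overlap between genotypes, while Plec did. There 11.1% of the 9025 genes did not overlap, and Celf2 cleared it narrowly, at 3381 CPM in Fpr2f/f replicate 1 and 3344 CPM in Fpr2VKO replicate 1. The part of free RNA in the members' differences was not tested.

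**Figure D5:**
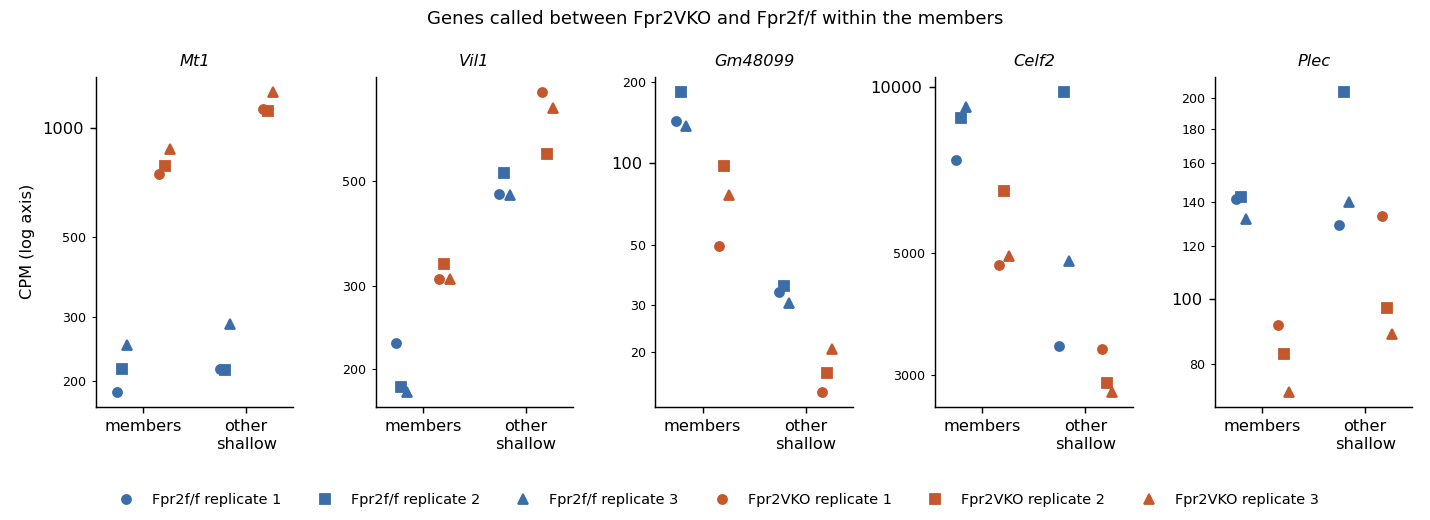
CPM (log axis, own scale per gene) of the 5 called genes in each library, in members (left of each panel) and in the other shallow barcodes (right). Within members the genotypes separate in all 5 genes, and in the other shallow barcodes Plec overlaps.

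The genes that mark the members did not pass the test between genotypes. Members were chosen at the same Peak1 limit in both genotypes, and these genes rose with Peak1. A genotype difference that goes with Peak1 can therefore be missed within members. Il31ra was present at 658, 1292 and 1240 CPM in Fpr2f/f and 737, 793 and 870.4 in Fpr2VKO (log2 fold change -0.41, SE 0.275, adjusted p = 0.836 by edgeR), with overlap. Cdk8 and Gphn overlapped as well, with log2 fold changes of -0.32 (SE 0.129, adjusted p = 0.625 by edgeR) and -0.14 (SE 0.167, adjusted p = 0.937 by edgeR). Of the 18 leading genes that were tested, 0 were called higher and 1, Gm48099, lower, and the median log2 fold change of the 18 was -0.17, beside 0.01 over all genes tested. The low-depth list had 0 of 14 genes with a positive value (median -0.30), 1 of them called. The 6 genes of the study's immature cell list all had negative values, from -0.55 for Ccnb1ip1 to -0.11 for Lars2. Of the 6, 0 were called by edgeR (3 at an unadjusted p under 0.05, beside 7.35% of all genes). The study named these genes on these libraries for being lower in immature cells of Fpr2VKO mice, so their direction is not independent evidence. The ribosomal protein genes it also named are not in the list, so the direction holds for these 6 genes alone. Of 80 tested cytosolic ribosomal protein genes, 63 had positive values (median 0.09) and 0 were called, beside 4623 positive of all 9025 genes. In free RNA, Il31ra had 241 to 338 CPM in Fpr2f/f and 123 to 183 CPM in Fpr2VKO, without overlap. Cdk8, at 831 to 973 CPM in Fpr2f/f and 481 to 564 CPM in Fpr2VKO, did not overlap there either. Gphn had 998 to 1206 CPM in Fpr2f/f and 574 to 720 CPM in Fpr2VKO, again without overlap. Of the 9025 genes, 15.3% did not overlap in free RNA.

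Most stem and transit-amplifying genes had positive values, and 0 were called. Of 12 transit-amplifying genes, 9 had positive values (median 0.29, 0 called, 7 at an unadjusted p under 0.05, beside 7.35% of all genes), with Mki67 at 205, 179 and 172 CPM in Fpr2f/f and 215, 264 and 291 in Fpr2VKO (adjusted p = 0.251 by edgeR). Of 9 tested stem genes, 8 had positive values (median 0.15, 0 called, 3 at an unadjusted p under 0.05). Olfm4 was present at 352, 356 and 405 CPM in Fpr2f/f and 442, 415 and 601 in Fpr2VKO (adjusted p = 0.478 by edgeR), without overlap. In free RNA Olfm4 had 251 to 297 CPM in Fpr2f/f and 546 to 647 CPM in Fpr2VKO, also without overlap and further apart than in members, and its part in the members' values was not tested. The 6 tested tuft genes all had positive values (median 0.46, 0 called, 4 at an unadjusted p under 0.05), beside the overlapping shares of tuft barcodes given above. Of 11 enterocyte genes, Vil1 was the 1 called (median 0.25), and of the Paneth, goblet, enteroendocrine, epithelial and immune genes tested, 0 were called, with medians of 0.25, -0.13, 0.31, -0.05 and -2.34, the last from 1 gene. Blood and stroma genes were too low to be tested. Of the partner lists of PEAK1, IL31RA, CDK8 and gephyrin, 0 genes were called (medians -0.12, -0.35, 0.05 and -0.14). A fall in cells of a type and a fall in RNA per cell cannot be told apart in such sums.

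Medians over the members of each library were compared as well. The median share of UMIs in cytosolic ribosomal protein genes was 12.3% ± 0.308 in Fpr2f/f and 13.1% ± 0.377 in Fpr2VKO members (SD, n = 3 each), without overlap (exact permutation p = 0.1, two-sided, 0.5 after adjustment over 5 tests). With a Peak1 limit of 10% in place of 5% the difference turned from 0.832 to -0.231 percentage points. When UMIs were pooled per library instead, the groups overlapped (exact permutation p = 0.5). The median shares of nuclear long non-coding RNAs, Il31ra, Cdk8 and Gphn overlapped between genotypes (exact permutation p = 1, 0.6, 0.4 and 0.9). The median Peak1 share, which the rule bounds from below, is given above.

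Whether the genotypes differed otherwise in members than in the other shallow barcodes was tested with an interaction term in edgeR over 12 sums of UMIs. Of 12615 genes tested, 1 (0.00793%) was called at an adjusted p under 0.05 and 539 (4.27%) had an unadjusted p under 0.05. The called gene was Nts, which encodes the gut peptide neurotensin of enteroendocrine cells, and the call rested on single barcodes. Members held 1, 5 and 4 Nts UMIs in Fpr2f/f and 0, 1 and 226 in Fpr2VKO, and 215 of the 226 came from 1 barcode of Fpr2VKO replicate 3. In the other shallow barcodes of Fpr2f/f, 1 barcode per library likewise held 58 of 63, 309 of 319 and 224 of 231 UMIs. Without Fpr2VKO replicate 3, 0 genes were called. For the 5 genes called within members, the interaction was not called. The differences of log2 fold change between members and other shallow barcodes were -0.39 (SE 0.143) for Mt1, 0.26 (SE 0.161) for Vil1 and 0.23 (SE 0.450) for Celf2 (adjusted p = 1.00 for each by edgeR). The gene next in rank was Olfm4, at -0.94 (SE 0.181, adjusted p = 0.0945 by edgeR): the other shallow barcodes had 252, 294 and 343 CPM in Fpr2f/f and 532, 971 and 827 in Fpr2VKO, a wider gap than that of the members given above. Leaving out Fpr2f/f replicate 1, 2 or 3 gave 3, 13 and 4 genes, and leaving out Fpr2VKO replicate 1 gave 3.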

How the data were processed

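The deposited files gave, for each of 32285 genes and each barcode, the count of UMIs without normalization. The authors aligned reads to mm10 and counted with MobiVision (version 2.1), and the submitters' processing notes name Seurat (4.0.0) for later steps that are not in these counts. The annotation version was not given in the sources used here. Members were found by the limits given in the results, in 6 libraries grouped by their labels. The members and the gene lists were chosen with earlier results of these data known. No correction for free RNA was applied.

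UMIs were summed per library and population. Genes were tested with edgeR 4.0.16 (R 4.3.3, TMM, filterByExpr, robust quasi-likelihood fit), adjusted by Benjamini-Hochberg over all genes tested, with an adjusted p under 0.05 as the call. The genes of the rule stayed in the totals and out of the tests. The interaction fit used library, population and genotype within population. DESeq2 1.42.0 was an alternative. The scripts were tested on simulated data. Values of 1 number per library were compared with exact permutation tests (scipy 1.17.1). Before shares of barcodes with a UMI were taken, each barcode was thinned to 1000 UMIs. Intervals and limits for a count of 0 (3 counts of the total) cover counting error only. Further alternatives were other limits for Peak1, mitochondrial share and UMIs, no filter on low counts, no TMM, rule genes left out of the totals, the replicate number as a block, each library left out, and barcodes of 3 or more tuft genes left out, the last chosen after seeing the data.

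Named genes were the genes of the lists, the 20 leading higher genes (at least 100 CPM in members) and 10 leading lower genes against the other shallow barcodes, the 20 of highest mean CPM outside the mitochondrial genome, and called genes with a mean of at least 20 CPM and no overlap of the groups. Nts was named after its value was seen. Some genes are not reported here. Gene positions, counted from 1, came from GENCODE vM21 (GRCm38), in which 32235 of 32285 gene IDs were found.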

Additional observations from a re-analysis of the deposited data

Results flagged for a closer look

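The genotype difference of Nts, the neurotensin gene, differed between members and other shallow barcodes by 12.4 on the log2 scale (edgeR interaction test, adjusted p = 3.6e-25 over 12615 genes). In members it had 0.759, 1.44 and 2.42 CPM in Fpr2f/f and 0, 1.07 and 401 in Fpr2VKO, and in the other shallow barcodes 18.1, 40.8 and 41.0 CPM in Fpr2f/f and 0, 0.246 and 1.17 in Fpr2VKO. The size of this value depends on near-zero counts and is no bound. The value rested on 2 barcodes with a UMI among the 166 members of Fpr2VKO replicate 3, and the difference was 6.33 and not called without that library. Groups of 3 libraries are too small for a test of single libraries that stand apart.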

How the results depend on the processing

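Members were less frequent in Fpr2VKO under every alternative run, each of which kept a Peak1 limit. The differences were -2.63 to -9.70 percentage points over both denominators, and -12.0 for the Peak1 limit alone, which was run for shallow barcodes only, and the exact test passed 0.05 in none, which 3 against 3 libraries cannot reach. The count of genes called within members was 5 as reported, 11 with a Peak1 limit of 3%, 3 with a mitochondrial limit of 10%, 17 with no filter on low counts, and 1 to 13 when 1 library was left out. DESeq2 called 4. Genes whose genotype difference differed between members and other shallow barcodes numbered 1 as reported, 3 with a Peak1 limit of 10%, 5 with a mitochondrial limit of 40%, 7 with no filter on low counts, 2 without barcodes of 3 or more tuft genes (an alternative chosen after seeing the data), and 0 to 13 with 1 library left out. The difference for Nts was -4.73 with a Peak1 limit of 10%.

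Libraries were not treated as pairs, and the labels do not say what the replicate numbers mean. Deviations of same-numbered libraries correlated at 0.0286, 0.0492 and 0.0431, and those of differently numbered libraries at -0.0465 to 0.00378. With 3 libraries per genotype, these small values cannot decide whether the numbers mark pairs. With the replicate block 11 genes were called within members and the paired test of the shares gave an exact permutation p = 0.25.

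None of the 5 per-library medians could be called under any alternative. The smallest exact permutation p is 0.1, or 0.2 with 1 library left out, so the lack of calls says nothing of stability. The sign turned in 3 of the 5 medians (percentage points of UMIs, Fpr2VKO minus Fpr2f/f). The values were, for ribosomal protein genes -0.231 with a Peak1 limit of 10%, against 0.832 as reported, for nuclear non-coding RNAs 0.0590 with that limit, 0.281 with a mitochondrial limit of 10% and -0.0410 to 0.0541 with 1 library left out, and for Gphn -0.0166 and -0.0458 with Peak1 limits of 3% and 10%, -0.0438 and -0.0108 with mitochondrial limits of 10% and 40%, -0.00806 from 1500 UMIs, -7.01e-05 without tuft barcodes and -0.0459 to 0.0338 with 1 library left out. The cause of these changes was not tested. Of 214 comparisons with an alternative, 161 kept direction and side of the threshold and 23 lost a call. In 14 the sign changed, and 16 counts moved by over 1.5 times. The 161 include 13 and 14 comparisons of shares, and further ones of medians, whose exact tests could not reach 0.05. For these only the direction could change. Members summed to as few as 564131 UMIs in a library, which limits low genes.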

Other observations

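A list of 14 immediate early and heat shock genes gave no single direction in members. Of the 14 genes, 4 were higher and 6 lower than in the other shallow barcodes in 6 of 6 libraries (median log2 ratio 0.04). Over all genes, 8.01% were higher and 50% lower. Hsp90aa1 and Dnajb1, both chaperone genes, had means of 736 and 505 CPM and of 88.6 and 59.1 CPM in members and other shallow barcodes, and Atf3, a stress transcription factor, 474 and 364 CPM. Hspa8, Hspa1a and Hspa1b, which encode further chaperones, were lower in every library, the first with 638 and 984 CPM. Of 12 genes of apoptosis and p53 targets, 0 were higher and 6 lower (median -0.65), beside 50% of all genes lower, with Cdkn1a, a cell cycle inhibitor, at 91.8 and 149.8 CPM and Trp53inp1 at 4.78 and 25.3 CPM. Between genotypes, 0 genes of these 2 lists were called by edgeR (2 and 1 at an unadjusted p under 0.05, beside 7.35% of all genes).

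Among 5 measured metallothionein and zinc genes, 3 were lower in members in every library (median -0.58), beside 50% of all genes. Between genotypes Mt1 was the only 1 of 5 that was called, and Mt2 was present at 11.4, 14.7 and 33.8 CPM in Fpr2f/f and 12.6, 22.5 and 63.8 in Fpr2VKO, with overlap. Of the 13 mitochondrial genes, whose sum the rule bounds, 8 were higher in members than in the other shallow barcodes in every library (median 0.13).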
